A study of Sus scrofa with 6 samples.

Results

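PTCH1 and GAS1, which encode a receptor and a co-receptor of the Hedgehog pathway, were described in pig skin by their mRNA level in every sample. They were the 2 of 14900 mRNAs in the deposited table whose identifiers carry those symbols in the gene lists supplied with the study. Those lists hold expressed mRNAs and mRNAs that the study had called different, so the pair is no random draw. A symbol was found there for 2125 mRNAs also named in a reference table and for 183 others, so most mRNAs carry none. The study's calls rest on the same 6 samples, so the tests below are no independent evidence of a difference. The samples came from 3 unrelated female Bama pigs aged 2 years, a breed with black ends and a white trunk. Each pig gave a sample of its white skin (back) and a sample of its black skin (buttock), cut 8 mm deep, 3 white and 3 black samples in all, with samples of the same number taken as 1 pig. Every white sample is therefore back skin and every black sample buttock skin, so skin colour and body site cannot be told apart.

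Hedgehog ligands are secreted proteins that bind PTCH1, a membrane protein that holds the signal transducer SMO inactive in their absence. Ligand binding frees SMO, and GLI transcription factors then enter the nucleus and switch on target genes, among them PTCH1 itself and GLI1, so that the PTCH1 mRNA level is widely read as an output of the pathway. GAS1, CDON and BOC are cell surface proteins that bind the ligands together with PTCH1. In skin, SHH made by the follicle epithelium acts on the epithelium and on the dermal cells below it, and the pathway is known for its role in hair follicle growth and in basal cell carcinoma.

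The labelled tissue was checked against marker genes. The summed FPKM (fragments scaled to transcript length and to the number of mapped fragments) of 11 melanocyte markers was between 7.95 and 11.0 in white skin and between 45.3 and 194 in black skin. Of these markers, TYR was listed at 0 in all 3 white samples and in black 3, and TYRP1 and MLANA were listed at 0 in white 1 and white 2. Summed over all mRNAs, FPKM ranged from 408598 to 501424 per sample, and the median mRNA had an FPKM between 4.46 and 4.96 in white and between 5.65 and 6.70 in black skin. The median log2 difference between the skins over all mRNAs was accordingly -0.31, and it was -0.03 after quantile normalization and -0.12 after scaling to the upper quartile. All differences here are white minus black skin on the log2(FPKM + 0.5) scale, which understates the change of low genes, and a gene was called when limma gave it a Benjamini-Hochberg adjusted p under 0.05 and an absolute log2 fold change above 1.

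PTCH1 (ENSSSCG00000027312) lies on chromosome 10 of Sscrofa11.1, at chr10:26626658-26703223. Its FPKM was 1.97, 1.06 and 1.56 in white 1, 2 and 3, and 4.49, 6.91 and 4.49 in black 1, 2 and 3. All 3 white values were below all 3 black values, black 2 was the highest and white 2 the lowest. The mean was 1.53 ± 0.455 in white and 5.30 ± 1.40 in black skin (SD, n = 3 each). PTCH1 was lower in white skin by limma, with a log2 fold change of -1.51 (SE 0.31, 95% confidence interval from -2.22 to -0.81) and a Benjamini-Hochberg adjusted p of 0.0321. By the same rule 6.24% of all mRNAs were called, 3.62% lower and 2.62% higher in white skin. White and black values did not overlap for 35.3% of all mRNAs, and all white values were under all black values for 25.7%. An exact two-sided permutation test of the 6 FPKM values gave p = 0.1, the smallest that 3 samples against 3 allow. In bulk skin, fewer cells that express PTCH1 and less PTCH1 RNA per cell cannot be told apart.

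The PTCH1 difference was in the same direction in each pig, with 2.28, 6.51 and 2.87 times as much FPKM in black as in white skin of pig 1, 2 and 3. With the pig as a block in limma, the adjusted p was 0.0388. After quantile normalization, which forces the 6 samples to 1 distribution, the log2 fold change was -1.10 with an adjusted p of 0.0776, so the call was lost, where 4.7% of all mRNAs were called and 1.46% were called lower. It was also lost when any 1 sample other than black 1 was left out, with log2 fold changes from -1.67 to -1.32 and limma adjusted p from 0.0683 to 0.139 in those 5 fits. Without black 1 the adjusted p was 0.0499. Read by rank within each sample, which no scaling between samples can change, PTCH1 was above 31.9%, 23.9% and 25.7% of all mRNAs in the white samples. In the black samples it was above 44.1%, 53.8% and 39.4% of them (exact two-sided permutation p = 0.1).

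GAS1 (ENSSSCG00000033321) lies 1.81 Mb from PTCH1 on the same chromosome, at chr10:28509260-28510310, and encodes a lipid-anchored surface protein first described as a gene of growth-arrested cells. Its FPKM was 14.1, 7.43 and 20.0 in white 1, 2 and 3, and 29.4, 14.0 and 62.0 in black 1, 2 and 3. The groups overlapped, since black 2 was below white 1 and white 3. The highest black value was 4.43 times the lowest, against 1.54 times for PTCH1. The mean was 13.8 ± 6.31 in white and 35.1 ± 24.5 in black skin (SD, n = 3 each). Limma gave a log2 fold change of -1.17 (SE 0.55, 95% confidence interval from -2.43 to 0.09) with a Benjamini-Hochberg adjusted p of 0.202, so GAS1 was not called, and the exact two-sided permutation test gave p = 0.3.

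Within each pig, however, the GAS1 value was lower in the white sample, in 3 of 3 pigs. Black skin had 2.09, 1.88 and 3.09 times the FPKM of white skin in pig 1, 2 and 3. White 2 and black 2 were each the lowest of their skin, and white 3 and black 3 each the highest, so the pigs kept their order from one skin to the other. With the pig as a block the same log2 fold change had an SE of 0.24 and a limma adjusted p of 0.0378, which is a call, where 9.66% of all mRNAs were called and 6.42% were called lower. With both samples of any 1 pig left out as well, GAS1 had log2 fold changes from -1.32 to -0.95 and adjusted p from 0.0832 to 0.152, and PTCH1 from -1.76 to -1.14 with adjusted p from 0.0714 to 0.197, so neither was called. By rank, GAS1 was above 76.2%, 62.4% and 82.8% of all mRNAs in white 1, 2 and 3 and above 87.9%, 72.2% and 94.6% of them in black 1, 2 and 3 (exact two-sided permutation p = 0.3).

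**Figure D1:**
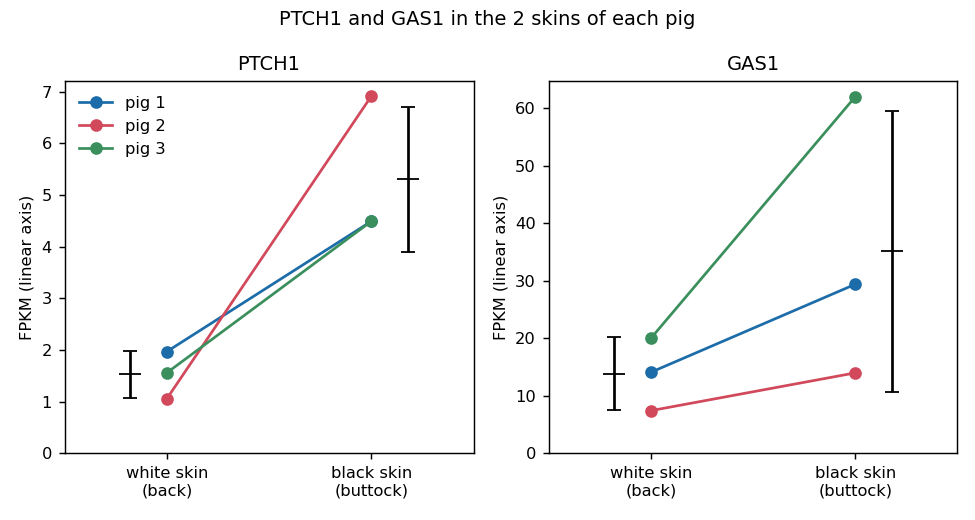
FPKM of PTCH1 (left) and GAS1 (right) on linear axes in white and black skin, with a line joining both skins of each pig and black bars for the mean ± SD (n = 3) of each skin. Every line rises from white to black skin; the PTCH1 groups are apart, while the GAS1 value of 14.0 in black skin of pig 2 lies within the white range of 7.43 to 20.0.

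The relation of both genes to each other was compared within each sample, where the scaling of a library cancels. FPKM is per length, so levels of different genes can be set side by side, but the GAS1 locus supplied with the study spans 1051 bases and the RefSeq gene 2387, and which length entered the FPKM is not given in the sources used here. PTCH1 had 0.140, 0.143 and 0.0780 times the FPKM of GAS1 in white 1, 2 and 3. The ratio was 0.153, 0.494 and 0.0725 in black 1, 2 and 3. GAS1 was the higher of the pair in all 6 samples, and only black 2 had a ratio far from the rest of them. The log2 ratio was taken with 0.5 added to each FPKM. The log2 ratio differed by -0.34 between the skins (-2.74 ± 0.51 in white and -2.40 ± 1.35 in black, SD, n = 3 each; exact two-sided permutation p = 0.9). Without black 2 the difference was 0.37 (exact permutation p = 0.4). A difference in the change of PTCH1 and GAS1 was thus not detectable with 3 pigs.

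The other genes of the pathway came from a list of 51, of which 43 could be matched to an identifier. Limma called 2 of the 43 lower in white skin, PTCH1 and CDON, and none higher, a share of 4.65% against 6.24% of all mRNAs. Without adjustment, at p under 0.05 and the same fold, 8 of the 43 were lower, against 11.0% of all mRNAs. Of the 43 log2 fold changes, 40 were below 0 (93.0%, and 83.7% after quantile normalization), against 69.1% of all mRNAs (52.4% after quantile normalization). Their median was -0.73, or -0.40 after quantile normalization. All white values lay under all black values for 23 of them (53.5%), against 25.7% of all mRNAs. With the pig as a block, limma called 6 of the 43 lower: DISP1, PTCH1, GAS1, CDON, CSNK1E and FOXE1, where 6.42% of all mRNAs were called lower.

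Among the 5 receptors and co-receptors matched, PTCH1 and CDON were called. CDON FPKM was 1.69, 1.48 and 1.77 in white 1, 2 and 3, and 3.52, 8.65 and 7.04 in black 1, 2 and 3. CDON thus had no overlap and its highest value in black 2, like PTCH1. Its log2 fold change was -1.61 (SE 0.35, limma adjusted p = 0.0387). The CDON call, like that of PTCH1, was lost after quantile normalization (limma adjusted p = 0.0761) and when any 1 sample other than black 1 was left out (0.0801 to 0.150). SMO, the transducer that PTCH1 restrains, had a log2 fold change of -0.89 (limma adjusted p = 0.0739). BOC, the co-receptor related to CDON, had -0.29 with a limma adjusted p of 0.528, and 0.024 after quantile normalization. Of these 5 genes, 4 had their highest value in black 2, PTCH1 itself included, and GAS1 alone had it in black 3. Black 2 was the highest sample for 24.0% of all mRNAs, but 5 genes are few to set against that share.

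The factors downstream of PTCH1 shared its maximum in black 2. GLI1, the factor that is itself a target, had FPKM of 0.860, 0.682 and 0.727 in white and 2.04, 4.55 and 1.98 in black 1, 2 and 3. Its log2 fold change was -1.34, with a limma adjusted p of 0.0574. GLI2 and GLI3, the factors that start the response and repress it without ligand, had log2 fold changes of -0.86 and -0.81 with limma adjusted p of 0.0848 and 0.133. None of the 3 was called, GLI1 being the only factor past the fold at an unadjusted p under 0.05, yet each had its highest value in black 2 and no overlap between the skins. PTCH1 ordered the samples as white 2 below white 3 below white 1, with black 2 above black 1 and 3. This order was found for 1 of the 3 factors. Within each sample, PTCH1 stayed close to GLI1, with a log2 ratio of 0.67 ± 0.24 in white and 0.85 ± 0.25 in black skin. PTCH1 over SMO was -2.17 ± 0.47 in white and -1.54 ± 0.07 in black skin, and did not overlap.

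Ligand mRNA was low. SHH FPKM was 0.0112 in white 1, and it was listed at 0 in white 2 and white 3. In black 1, 2 and 3 it was 0.976, 0.651 and 0.0934. The black samples were ordered differently than for PTCH1, which had FPKM of 4.49, 6.91 and 4.49 in them. The part of SHH in the PTCH1 values was not tested. The SHH log2 fold change was -0.99 with a limma adjusted p of 0.125, and that of DHH, the ligand of nerve sheath and gonad, was -0.83 with 0.142. DISP1, which releases the ligands from their source cell, had -1.14 with 0.112, or 0.0422 with the pig as a block. HHAT, which attaches their lipid, had 0.55 with 0.304. No ligand gene was called without the block, and DISP1 was the only gene of the 6 past the fold at an unadjusted p under 0.05.

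Of 22 genes of signal transduction, none was called by limma, and CSNK1E, a casein kinase, was alone in passing the fold at an unadjusted p under 0.05. CSNK1E had a log2 fold change of -1.14 (limma adjusted p = 0.0819, or 0.0389 with the pig as a block). SUFU, which retains GLI factors in the cytoplasm, had -0.43, and PRKACA, a catalytic subunit of the kinase that marks GLI factors for processing, had 0.0024, with limma adjusted p of 0.400 and 0.996. Of 7 target genes other than PTCH1 and GLI1, none was called, and 3 passed the fold at an unadjusted p under 0.05. They were FOXE1, a factor of the follicle epithelium (-1.45, limma adjusted p = 0.118), the repressor SNAI1 (-1.16, 0.0838) and the growth regulator MYCN (-1.09, 0.135). The cell cycle gene CCND1 had a log2 fold change of 0.049.

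**Figure D2:**
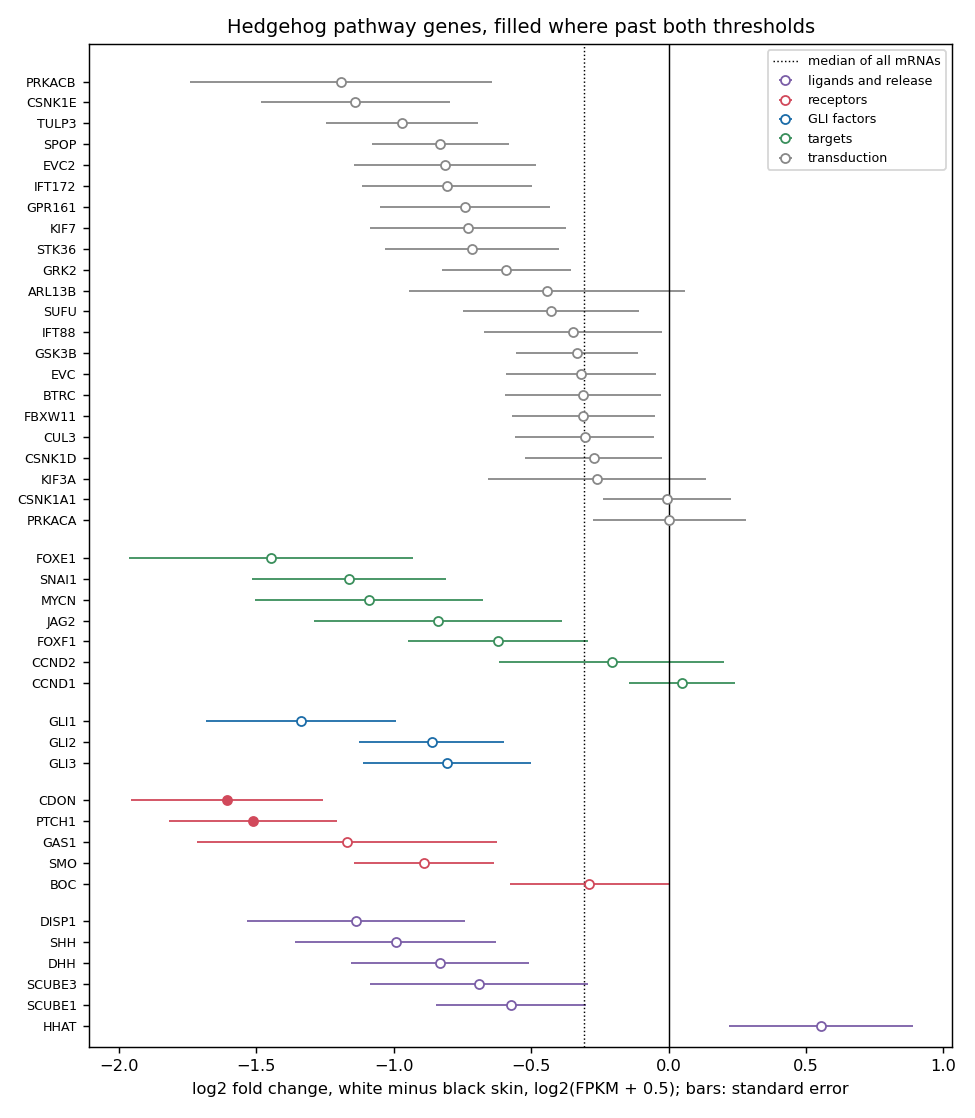
Log2 fold change, white minus black skin, of the 43 Hedgehog pathway genes that could be matched, with bars for the SE, coloured by role; filled points are past both thresholds in limma and the dotted line is the median of all mRNAs at -0.31. PTCH1 and CDON are the filled points, and 40 of the 43 lie left of 0.

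To place each gene among all others, the 12418 other named mRNAs were ranked by the root-mean-square distance between their log2 profiles over the 6 samples and that of PTCH1 or GAS1, each centred on its mean. The 5 closest to PTCH1 were the semaphorin SEMA6A (distance 0.0886), the secreted protein C1QTNF3, the procollagen protease BMP1, the chloride channel PACC1 and the guanine nucleotide exchange factor ARHGEF15. SEMA6A FPKM was 2.46, 1.62 and 2.13 in white and 5.75, 8.96 and 6.73 in black 1, 2 and 3. All 5 share the maximum of PTCH1 in black 2 and were lower in white skin, with log2 fold changes from -1.41 (C1QTNF3) to -1.56 (SEMA6A). GLI1 ranked 43, CDON 182 and GAS1 8137 by closeness to PTCH1.

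The 5 closest to GAS1 were WWTR1 (distance 0.174), a coactivator of the Hippo pathway, the plasma peroxidase GPX3, the immune ligand TNFSF9, the membrane protein PLXDC2 and the adrenergic receptor ADRA2A. WWTR1 FPKM was 3.16, 2.18 and 4.29 in white and 8.56, 3.48 and 17.1 in black 1, 2 and 3. These genes share the dip of GAS1 in black 2 and its maximum in black 3, and none of the 5 was called without the block. PTCH1 ranked 5108 by closeness to GAS1. Since the closest genes were picked on the same 6 values, their own calls add no support to those of PTCH1 or GAS1. The distance is a description over 6 samples.

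**Figure D3:**
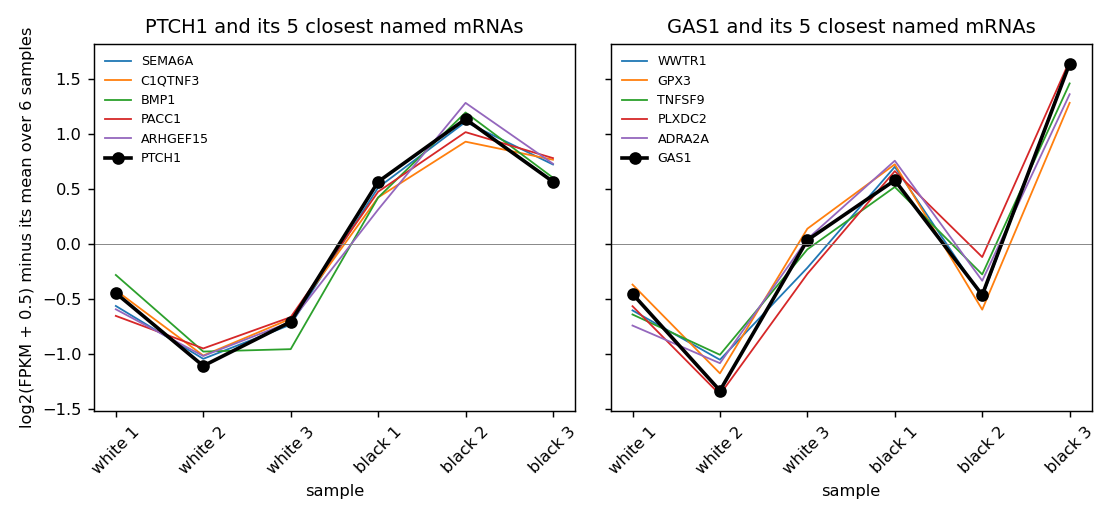
Log2(FPKM + 0.5) minus its mean over the 6 samples for PTCH1 (left) and GAS1 (right), in black, with the 5 closest named mRNAs in colour. PTCH1 and its neighbours peak in black 2, where GAS1 and its neighbours dip before their maximum in black 3.

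Both skins also differed in markers of several cell types, some higher and some lower in white skin, and these were set beside PTCH1 and GAS1. All 6 smooth muscle markers had log2 fold changes above 0, 5 were called higher in white skin (2.62% of all mRNAs were), and their summed FPKM was 3547 to 6252 in white and 504 to 1487 in black skin. All 6 were highest in white 2, the sample lowest in PTCH1 and GAS1, whereas white 2 was the highest sample for 11.5% of all mRNAs. The fibroblast list, to which DCN, COL1A1 and PDGFRA belong, was below 0 for 11 of 11 genes. Of them 4 were called lower, against 3.62% of all mRNAs. The fibroblast sum was 2947 to 5624 in white and 8045 to 11679 in black skin. The part of these cell types in the PTCH1 and GAS1 values was not tested.

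PTCH1 was also set against fibroblast genes of the same sample. The log2 ratio of PTCH1 to DCN, a proteoglycan of dermal fibroblasts, was -8.80 ± 0.05 in white and -8.85 ± 0.68 in black skin, and that of PTCH1 to COL1A1 was -7.34 ± 0.73 and -7.07 ± 0.65. GAS1 over PDGFRA, a receptor of fibroblasts, was higher in white skin, at 2.81 ± 0.40 against 2.00 ± 0.16, without overlap. GAS1 over DCN was -6.06 ± 0.47 in white and -6.45 ± 0.67 in black skin, and GAS1 over COL1A1 was -4.60 ± 1.23 and -4.67 ± 0.79, and both of these overlapped. PTCH1 over PDGFRA was 0.07 ± 0.42 in white and -0.40 ± 1.33 in black skin, and overlapped as well. These ratios carry no test.

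The adipocyte list followed GAS1 in its order of samples. All 8 adipocyte markers had log2 fold changes below 0 and 6 were called lower, against 3.62% of all mRNAs. Their sum was 148 to 552 in white and 884 to 2092 in black skin. Each of the 8 had the GAS1 order, white 2 below white 1 below white 3 and black 2 below black 1 below black 3, which 7.10% of all mRNAs had. Of the 11 fibroblast markers 1 had it, PDGFRA. By closeness of profile to GAS1, however, the fibroblast genes PDGFRA and DCN ranked 322 and 473, ahead of ADIPOQ at 1052. The list's ADIPOQ, an adipocyte hormone, differed more than GAS1, so that the log2 ratio of GAS1 to ADIPOQ was -0.61 ± 0.12 in white and -1.74 ± 0.32 in black skin, without overlap. PTCH1 over ADIPOQ was -3.35 ± 0.60 in white and -4.14 ± 1.13 in black skin, and overlapped. The PTCH1 order of samples was found in none of the 8, in 4 of the 43 Hedgehog genes with PTCH1 itself included (9.30%), and in 3.91% of all mRNAs. It leaves black 1 and black 3 unranked, so it is a looser criterion than the GAS1 order. The part of adipocytes in the GAS1 values was not tested.

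The hair follicle list shared the low of PTCH1 and GAS1 in white 2 but not their order within black skin. Its 14 genes all had log2 fold changes below 0 (median -2.74), all were lowest in white 2 and all were highest in black 1, with a sum of 11632 there, of 471 in black 2 and of 266 in black 3, and between 4.20 and 203 in white skin, and limma called none of them (8 past the fold at an unadjusted p under 0.05). With the pig as a block, 4 of the 14 were called lower: KRT71, KRT27, KRT28 and KRT35. Over all mRNAs, 6.42% were called lower with the block, and 11.0% were lower past the fold at an unadjusted limma p under 0.05. The part of hair follicles in the PTCH1 and GAS1 values was not tested. KRT71, an inner root sheath keratin, had FPKM of 2720 in black 1, 160 in black 2 and 47.0 in black 3, and of 0.0275 in white 2. PTCH1 FPKM was 4.49, 6.91 and 4.49 in black 1, 2 and 3, and 1.06 in white 2. Of 13 dermal papilla markers, BMP4 and BMP6 were called lower and ALPL higher in white skin, against 3.62% and 2.62% of all mRNAs. The sum of the 13 was 35.2 to 75.7 in white and 98.2 to 338 in black skin. CRABP1, a retinoic acid binding protein, made up most of that sum only in black 1 and 2, with 147 of 216 and 268 of 338. It had 32.1 of 98.2 in black 3, and 31.3 of 75.7, 14.7 of 54.3 and 2.78 of 35.2 in white 1, 2 and 3. Of the 13 markers, 4 were highest in black 2 (30.8%, against 24.0% of all mRNAs) and 4 in black 3. The PTCH1 order of samples was found in none of the 13. The other lists were endothelial (58.9 to 62.6 in white, 115 to 267 in black, 4 of 9 called lower), Schwann cell (59.8 to 67.7 and 113 to 206, 2 of 7 called lower) and immune (11.3 to 28.6 and 36.2 to 94.2, 1 of 8 called lower). The share called lower over all mRNAs was 3.62%. Of 8 skeletal muscle markers 3 were matched, and DES, which smooth muscle also expresses and which made up most of their sum (962 to 1081 in white, 41.7 to 139 in black), and CKM were called higher in white skin. The skeletal actin ACTA1 had FPKM of 0.0298, 0.194 and 1.77 in white and 0.0123, 0.138 and 0.349 in black 1, 2 and 3 (limma adjusted p = 0.528). The sums of 8 keratinocyte markers overlapped (443 to 1167 and 921 to 1282), with none called and none past the fold at an unadjusted p under 0.05. After quantile normalization limma called 2 of the 6 smooth muscle, 1 of the 9 endothelial and none of the 8 immune markers (4 immune markers being past the fold at an unadjusted p under 0.05 without it), against 5 of 11 fibroblast and 5 of 8 adipocyte markers. Over all mRNAs, 4.7% were called after quantile normalization, and 1.46% were called lower. Markers named here other than DCN, COL1A1, PDGFRA, PMEL, KRT71 and ADIPOQ, and GLI1 and SMO as denominators, were chosen after their values were seen.

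**Figure D4:**
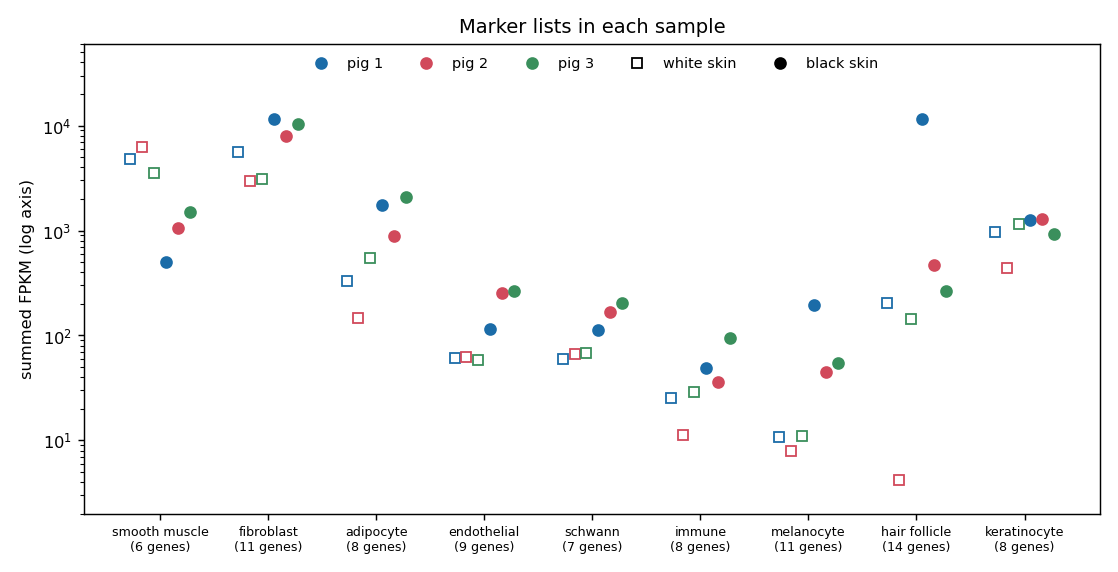
Summed FPKM of 9 marker lists in each sample on a log axis, with open squares for white and filled circles for black skin and a colour for each pig. Smooth muscle markers are higher in white skin, keratinocyte markers overlap, and the hair follicle sum of 11632 in black skin of pig 1 stands far above the other samples.

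The surroundings of PTCH1 and GAS1 on chromosome 10 were examined for other genes that differed. Between them and within 500 kb on either side lay 6 other mRNAs with a known position. Positions were not known for every mRNA, so others may lie there. FBP2, an enzyme of gluconeogenesis in muscle, was the only one called, with FPKM of 0.680, 0.0595 and 0.530 in white and 2.61, 2.17 and 2.59 in black 1, 2 and 3 (log2 fold change -1.74, SE 0.34, limma adjusted p = 0.0304). The FBP2 call was lost after quantile normalization (limma adjusted p = 0.0505) and when any 1 sample was left out (0.0563 to 0.115). Its neighbour FBP1, the liver form, had a log2 fold change of 1.15 (limma adjusted p = 0.179), the opposite direction to PTCH1 and GAS1. The lysosomal protease CTSL had -1.16 (0.0724), the death-associated kinase DAPK1 -0.84 (0.325), the DNA repair helicase ERCC6L2 0.021 (0.983) and the RNA uridylyltransferase ZCCHC6 -1.32 (0.114, or 0.0368 with the pig as a block). The fold changes of the region thus had either sign.

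**Figure D5:**
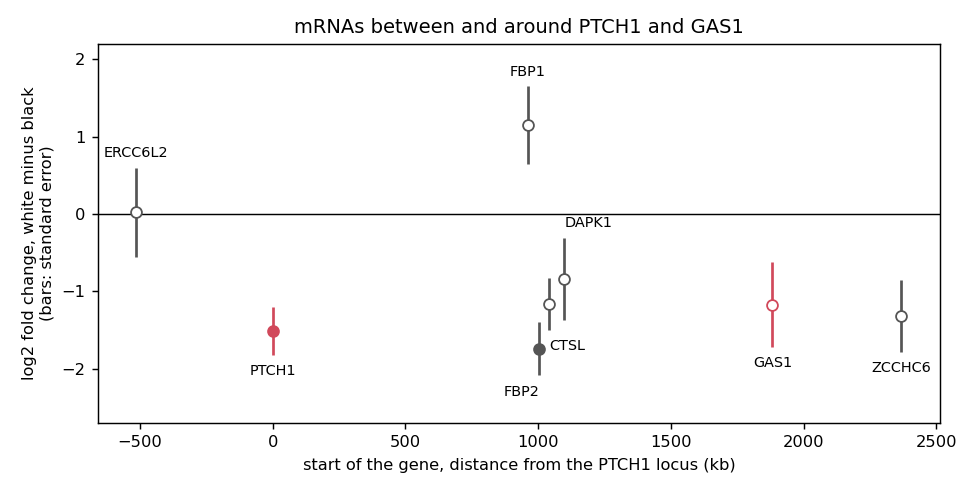
Log2 fold change, white minus black skin, with bars for the SE, of PTCH1, GAS1 (red) and the 6 other mRNAs with a known position in the region, by the distance of each start from that of PTCH1 in kb. Filled points, PTCH1 and FBP2, are past both thresholds in limma; FBP1 lies above 0 and ERCC6L2 at it.

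The same window held 23 lncRNAs, 5 of them between both genes and none overlapping PTCH1 or GAS1. Of the 23, 20 were listed at 0 in at least 1 sample. Of them 1 was called by limma on log2(FPKM + 0.1), where 1.33% of 7566 lncRNAs were called. TCONS_00010693 was listed at 0 in all 3 white samples and had FPKM of 0.146, 8.73 and 30.3 in black 1, 2 and 3 (limma adjusted p = 0.000458). It is 1 of 4 overlapping transcripts assembled on the plus strand, together at chr10:28770501-28770684, 260 kb past the higher end of GAS1. The 4 span 176 to 184 bases, and different ones of them carry the FPKM in different samples, so their sum was also taken, a choice made after the values were seen. The sum was listed at 0 in every white sample and was 188, 369 and 30.3 in black 1, 2 and 3 (exact two-sided permutation p = 0.1). The locus was picked for a call on these values, so that p adds no support. The sum had its maximum in black 2, as PTCH1 did, but TCONS_00010693 itself had it in black 3, as GAS1 did. Most of the black 2 sum was TCONS_00010691 (316), listed at 0 in all other samples. All 4 spans are below the 200 bases that define lncRNAs in the study.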

How the data were processed

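RNA from 3 white and 3 black skin samples was sequenced, and the authors aligned the reads to Sscrofa11.1 and deposited FPKM values computed with StringTie (1.3.3 in the submitters' notes, which name HISAT2 2.0.4 as aligner where the study's methods name TopHat). mRNAs above 0.5 and lncRNAs above 0.1 FPKM in at least 1 sample were kept by the authors. Counts were not used here, so the depth behind a value is unknown and no counting interval was computed. No further normalization is stated. The skins were compared by limma 3.58.1 (trend) in R 4.3.3 on log2(FPKM + 0.5), or + 0.1 for lncRNAs, with Benjamini-Hochberg adjustment over all features, without the pig as in the study. The pig was added as a block in an alternative: deviations of same-numbered samples from their group means correlated at 0.21, 0.36 and 0.20. p-values without the block treat both skins of a pig as independent. The model was tested on simulated data. Single values were compared by exact permutation tests (SciPy 1.17.1).

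Of 14900 mRNAs, 12419 (83.3%) were named, 12236 from a reference table and 183 from the study's lists only, GAS1 among these. Positions came from the study's lists or from RefSeq genes of the same assembly. Named genes were PTCH1, GAS1, the pathway list, the 5 closest profiles, and genes within 500 kb; 1 pathway gene is not reported here. The members and lists were chosen with earlier results of these data known. Alternatives covered the pseudocount, scaling, trend, a minimum mean FPKM of 1, the block and leaving out samples.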

Additional observations from a re-analysis of the deposited data

How the results depend on the processing

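The PTCH1 log2 fold change stayed below 0 under every alternative run. It was called with pseudocounts of 0.1 and 1, upper-quartile scaling, no trend, the mean filter and the pig block, and not after quantile normalization (-1.10). With 1 sample left out it ranged from -1.67 to -1.32, and with the block and 1 pig left out, an alternative chosen after seeing the data, -1.76, -1.14 and -1.63. GAS1 was called only with the block (-1.17, pairing by pig), and ranged from -1.70 to -0.64 with 1 sample left out and from -1.32 to -0.95 with the block and 1 pig left out. The block called 6 Hedgehog genes in place of 2 and 1439 mRNAs in place of 930. Quantile normalization called 0 Hedgehog genes. Unadjusted p called 8 Hedgehog genes and 2288 mRNAs. With 1 sample left out these counts ranged from 0 to 2 and from 35 (without white 2) to 847. The 930 calls were 539 lower and 391 higher in white skin, against 217 and 483 after quantile normalization and 281 and 570 after upper-quartile scaling. The PTCH1 to GAS1 log2 ratio ranged from -0.97 to 0.37 with 1 sample left out, reversing without black 2. Among 44 other named genes, BOC reversed after quantile normalization (0.024), and ERCC6L2, 0.021 at first, was -0.030 with a pseudocount of 1, -0.11 without white 3 and -0.72 without black 2, its leave-one-out range being -0.72 to 0.41. Apart from these 4 reversals the 44 genes gave 499 unchanged, 57 lost and 8 gained calls over 13 alternatives (12 for SHH, DHH, SCUBE1 and SCUBE3, which the mean filter removed). The cause of these changes was not tested, apart from fewer samples in the fits that leave some out. Unknown depth limits what can be said of low genes such as SHH.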
